A study of Mus musculus with 2 samples.

Results

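The 7 genes of the early cone and of phototransduction studied here were followed across the cell classes of the embryonic mouse eye. They were Thrb, Rxrg, Prdm1, Gngt2, Gnb3, Pdc and Rcvrn, taken by symbol from the deposited gene tables, and they are 7 of the 31053 genes listed there. Single-cell RNA-seq libraries of e15.5 eye cups were compared, 1 per genotype, each from 3 pooled eye cups after removal of cornea, lens and optic nerve. The genotypes were Myrf fl/fl, called control, and Rx>cre Myrf fl/fl, called mutant, so both carried floxed copies of Myrf and only the mutant carried Cre, which Rx sequence drives in the early eye field. With 1 library per genotype there is no replicate, and every interval below is at the 95% level and covers counting error only.

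Cones are among the first cells born in the retina, ahead of most rods, and cone precursors are therefore the main photoreceptors in the retina of the embryo. Thrb encodes a thyroid hormone receptor whose retinal isoform directs cones towards the medium-wavelength opsin, and Rxrg encodes the retinoid X receptor with which it can pair. Prdm1 (Blimp1) is a transcriptional repressor that keeps newly born photoreceptors from becoming bipolar cells. In the outer segment of a mature cone, light-activated opsin switches on a heterotrimeric G protein whose beta and gamma subunits are encoded by Gnb3 and Gngt2. Pdc encodes phosducin, which binds the beta-gamma dimer, and Rcvrn encodes recoverin, a calcium sensor of photoreceptors.

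All 7 were identified by their Ensembl gene in GRCm38. Thrb (ENSMUSG00000021779) lies on chromosome 14 from 17660261 to 18038090 on the plus strand, with the antisense gene Gm48321 over part of it, and Rxrg (ENSMUSG00000015843) on chromosome 1 from 167598384 to 167639623 on the plus strand. Prdm1 (ENSMUSG00000038151) lies on chromosome 10 from 44437177 to 44528501 on the minus strand. Gngt2 (ENSMUSG00000038811) lies on chromosome 11 from 95837216 to 95845734 on the plus strand, overlapping Abi3 on the minus strand. Gnb3 (ENSMUSG00000023439) lies on chromosome 6 from 124834240 to 124840275 on the minus strand. Pdc (ENSMUSG00000006007) lies on chromosome 1 from 150319417 to 150333906 on the plus strand, with the antisense gene 2310030A07Rik across it and Gm37764 on the same strand inside it. Rcvrn (ENSMUSG00000020907) lies on chromosome 11 from 67695326 to 67703333 on the plus strand, inside Glp2r on the minus strand.

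The sequence before the start of 4 of the members, Thrb, Rxrg, Prdm1 and Pdc, was read from RefSeq (GRCm38.p6), and the windows shown are those of the 2 nuclear receptors and of the member most confined to precursors. Each is the 250 bases before an annotated start, on the plus strand, and capitals mark TAATC, the core bound by OTX2 and CRX, and AGGTCA, the half-site of nuclear receptors, each on either strand. Thrb has an upstream and a downstream start, and the downstream one is that of the receptor isoform found in cones. They lie at chr14:17660710-17660959 and chr14:17981394-17981643, those of Rxrg at chr1:167598112-167598361 and chr1:167618015-167618264, and that of Pdc at chr1:150319167-150319416.
Thrb upstream start: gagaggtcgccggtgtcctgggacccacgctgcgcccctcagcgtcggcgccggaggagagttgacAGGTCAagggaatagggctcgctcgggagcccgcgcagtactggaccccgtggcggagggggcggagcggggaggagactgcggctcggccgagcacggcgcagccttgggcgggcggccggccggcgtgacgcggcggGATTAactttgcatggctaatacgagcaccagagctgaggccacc
Thrb downstream start: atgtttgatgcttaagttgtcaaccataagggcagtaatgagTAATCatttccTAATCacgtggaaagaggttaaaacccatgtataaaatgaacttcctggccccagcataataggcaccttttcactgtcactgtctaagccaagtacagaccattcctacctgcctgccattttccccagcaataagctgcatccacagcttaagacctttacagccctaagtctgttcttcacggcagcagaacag
Rxrg first start: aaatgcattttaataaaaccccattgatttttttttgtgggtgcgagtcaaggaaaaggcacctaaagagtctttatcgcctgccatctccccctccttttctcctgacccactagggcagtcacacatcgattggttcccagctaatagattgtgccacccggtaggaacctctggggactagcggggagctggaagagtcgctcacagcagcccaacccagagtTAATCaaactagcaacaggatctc
Rxrg second start: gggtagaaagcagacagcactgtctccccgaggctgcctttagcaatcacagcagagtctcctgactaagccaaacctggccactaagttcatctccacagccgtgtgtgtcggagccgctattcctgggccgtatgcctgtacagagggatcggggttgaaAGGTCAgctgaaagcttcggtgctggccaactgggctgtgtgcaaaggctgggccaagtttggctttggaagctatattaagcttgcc
Pdc: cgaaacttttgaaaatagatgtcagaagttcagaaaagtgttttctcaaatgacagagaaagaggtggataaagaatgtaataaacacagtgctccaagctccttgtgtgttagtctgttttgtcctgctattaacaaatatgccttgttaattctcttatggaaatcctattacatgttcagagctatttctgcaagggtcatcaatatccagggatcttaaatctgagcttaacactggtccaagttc

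The window of the downstream Thrb start held 2 TAATC matches, 208 and 197 bases before the start, and that of the first Rxrg start held 1, at 24 bases. The second Rxrg window held no TAATC and 1 AGGTCA match, at 88 bases. The upstream Thrb window held 1 TAATC match on the antisense strand at 45 bases, where it reads TAATCC in full, and 1 AGGTCA match at 184 bases. Neither motif was found in the Prdm1 or Pdc window. Among all 32851 RefSeq windows of this length, 19.8% held TAATC, 6.25% held TAATCC and 14.02% held AGGTCA, so matches of this length are common. The counts come from the 3′ end of transcripts and do not tell the Thrb starts apart.

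The libraries held 13017 control and 13880 mutant barcodes with 132436812 and 135678970 UMIs (unique molecular identifiers, each standing for 1 captured transcript), and 11518 and 12576 cells were kept. Clustering without the members as features gave 31 clusters, of which 27 were named "-like" from marker genes in 15 classes. Cluster 15 scored highest for retinal pigment epithelium (RPE) markers, but its 10 leading genes held 1 RPE marker, Ttr, and 2 melanocyte markers, Mlana and Tyr, so it is compared below by its number. Myrf, the targeted gene, was at 77.2 CPM in cluster 15 of the control and 29.8 CPM in that of the mutant, a ratio of 0.386 (0.285 to 0.515). In retinal progenitor-like cells it had 32 and 15 UMIs, a ratio of 0.346 (0.174 to 0.657). CPM stands for UMIs of a gene per 1000000 UMIs of the class. Among precursor-like cells, Myrf had 2 control UMIs and 0 mutant UMIs. Y-linked transcripts were found in 0.0260% of kept control cells but in 41.7% of kept mutant cells, and 59 of the kept barcodes occurred in both libraries.

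Photoreceptor precursor-like cells formed 1 cluster of 334 control and 483 mutant cells, with 6 of 7 class markers detected and a median depth of 6717 and 6826 UMIs. Crx, which activates photoreceptor genes, was at 478 and 461 CPM there, and Otx2, which specifies photoreceptors, at 1507 and 1583 CPM. The marker Samd7 was at 0. The class took up 2.90% of the control library (2.60% to 3.22%) and 3.84% of the mutant library (3.51% to 4.19%), a ratio of 1.32 (1.15 to 1.53). Among neural retina-like cells alone the shares were 5.46% and 5.94%, a ratio of 1.09 (0.946 to 1.26) that did not exclude 1. Periocular mesenchyme-like cells, which are outside the retina, had a share ratio of 0.644.

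Of the 7 members, 6 were highest in precursor-like cells in both libraries, and Rcvrn was not detected in them. Pdc was the most confined, with 93.6% of its control and 92.6% of its mutant UMIs in this class. Gnb3 followed at 84.4% and 88.9%, and Gngt2 at 74.3% and 84.3%. Thrb had 72.0% and 76.5% of its UMIs there, and Prdm1 65.4% and 65.2%. Rxrg was the least confined, at 43.1% and 49.4%. With a mitochondrial limit of 5% per cell, the shares fell to 19.6% and 24.9% for Rxrg and to 45.5% and 41.5% for Prdm1. That limit lay below the median of precursor-like cells, 5.81% and 5.86%, but above that of retinal progenitor-like cells, 2.92% and 1.88%. It left 119 control and 164 mutant precursor-like cells, so these shares refer to a smaller class. Rcvrn had 2 UMIs in all kept cells of both libraries, both in mutant mesenchyme-like cells, so with 0 UMIs in 334 control and 483 mutant precursor-like cells its level was at most 1.46 and 1.01 CPM by the upper counting bounds.

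**Figure D1:**
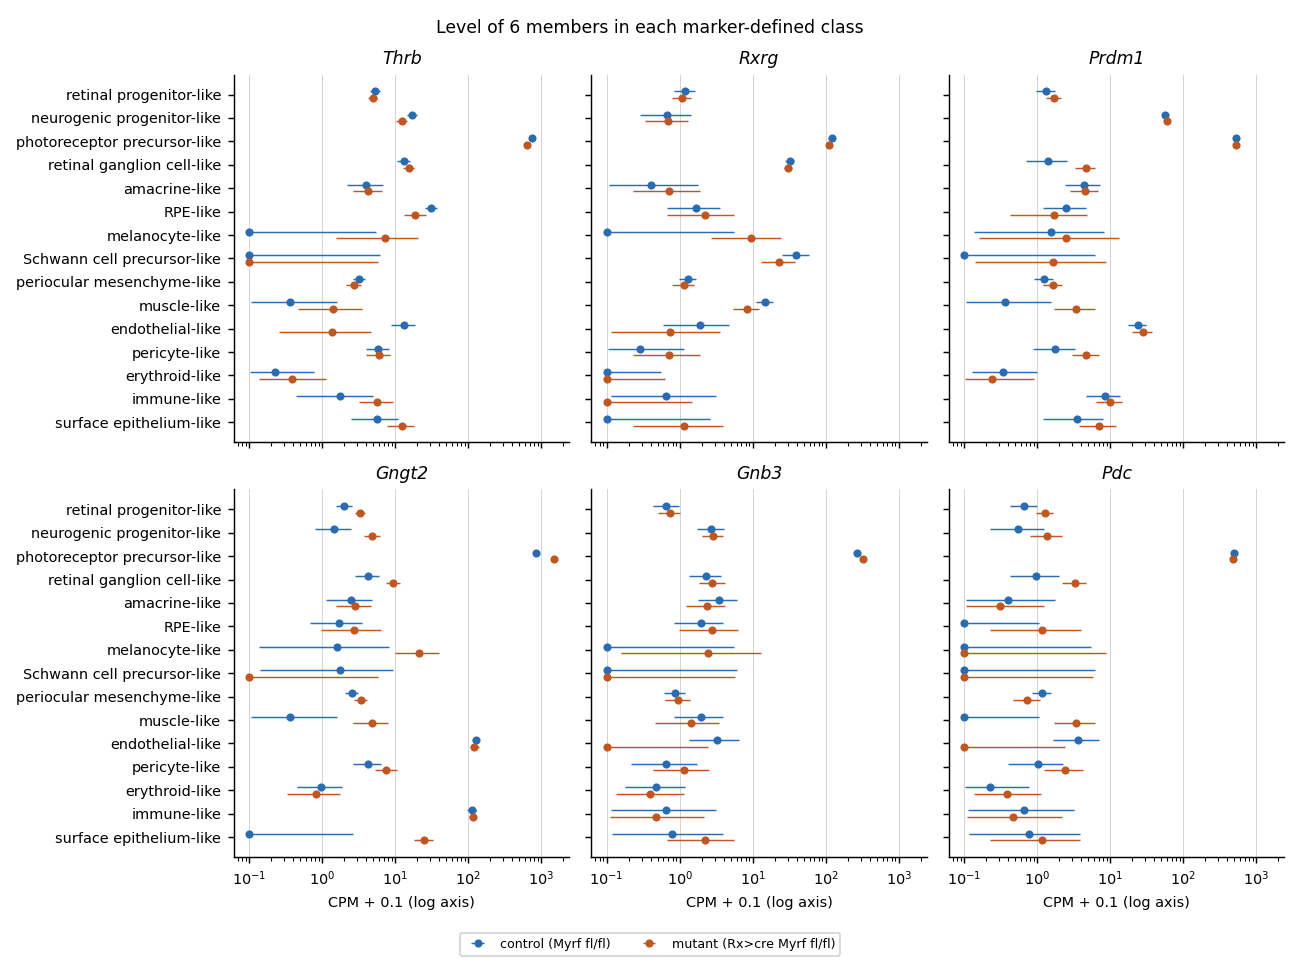
Level of 6 members in the 15 named classes, as CPM plus 0.1 on a log axis, for control (blue) and mutant (orange), with 95% counting intervals. Each gene is highest in photoreceptor precursor-like cells, where Pdc stands at 488 and 481 CPM, while Gngt2 also exceeds 100 CPM in endothelial-like and immune-like cells and Rxrg exceeds 30 CPM in retinal ganglion cell-like cells.

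The transcription factors had second sites of expression that differed from gene to gene. Thrb was at 745 CPM in control (712 to 779.7) and 630.0 CPM in mutant precursor-like cells (605 to 656), 28.0 times its mean level in the next class, cluster 15. Neurogenic progenitor-like cells, at 16.9 and 12.2 CPM, and retinal ganglion cell-like cells, at 12.9 and 15.3 CPM, came next, and their ranges over the libraries overlapped each other. Rxrg was at 119.7 CPM (107 to 134) and 111 CPM (100.3 to 122) in precursor-like cells and at 32.0 and 30.6 CPM in ganglion cell-like cells. Its ganglion cell level came from 1 of 2 clusters. That cluster, led by Sncg, Nrn1 and Mapt, stood at 64.5 and 64.2 CPM, whereas the cluster led by Cntn2, Ccer2 and Isl1 stood at 6.49 and 3.66 CPM. Schwann cell precursor-like cells, at 39.5 and 23.1 CPM from 24 and 15 UMIs, had a mean Rxrg level that did not separate from that of ganglion cells.

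Prdm1 was at 526 CPM (499 to 556) and 523 CPM (499.6 to 547) in precursor-like cells, followed by neurogenic progenitor-like cells at 56.3 and 59.5 CPM and endothelial-like cells at 23.6 and 27.6 CPM. Within the neurogenic class, Prdm1 was found mainly where Otx2 was. At 2000 UMIs per cell, neurogenic cells with an Otx2 UMI had 119 CPM (92.8 to 150.4) in control and 116 CPM (95.1 to 140.2) in mutant cells, against 18.1 (10.8 to 28.7) and 21.1 CPM (13.9 to 30.7) in those without. The other members had few UMIs in either set. Thrb was at 10.2 and 10.8 CPM with Otx2 and at 12.1 and 9.39 CPM without, from 6 to 12 UMIs, so its level did not separate with Otx2. Gngt2, Gnb3 and Pdc had 0 to 5 UMIs in each set.

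The G protein genes were read in other classes with more care. Gngt2 was at 853 and 1502 CPM in precursor-like cells, and next at 126 and 120.4 CPM in endothelial-like and 111 and 115 CPM in immune-like cells. Abi3, on the opposite strand over part of Gngt2, was at 55.7 and 42.7 CPM in endothelial-like and 51.3 and 53.7 CPM in immune-like cells but at 5.55 and 4.39 CPM in precursor-like cells. Whether reads of one were counted for the other in blood and vessel cells was not tested. Gnb3 was at 265 and 318 CPM in precursor-like cells and below 4 CPM in every other class, a mean 104 times that of the next class, amacrine-like cells, which had 11 UMIs in each library. Pdc was at 488 and 481 CPM there, 241 times its mean in the next class, ganglion cell-like cells, but that mean rested on 6 and 28 UMIs, with 100% and 89.3% of them in 5 cells or fewer. In erythroid-like cells, which should lack all 7, every member was at or below 0.858 CPM.

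In precursor-like cells the members did not move together between genotypes. The question of the study was the effect of loss of Myrf on the retina and RPE, and the 6 measured members gave a median log2 ratio of -0.02 (medians of the bounds, -0.12 to 0.10), near the median of -0.05 over the 10858 genes with at least 20 UMIs in the class. One member of 6, Gngt2, was past a fold of 1.5, and it was higher in the mutant. Over all genes tested 9.78% were past this fold, 4.57% higher and 5.21% lower. The interval lay above 0 for 2 members and below 0 for 1, where 12.1% of all genes had an interval that left out 0, 4.36% above and 7.78% below.

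Gngt2 was 1.76 times as high in the mutant (1.67 to 1.85), at 1502 against 853 CPM, with 5475 and 2153 UMIs. Its partner subunit Gnb3 was at 318 against 265 CPM, a ratio of 1.20 (1.09 to 1.32). Thrb was lower, at 630.0 against 745 CPM, a ratio of 0.845 (0.795 to 0.899). Rxrg, at 111 against 119.7 CPM, had a ratio of 0.926 (0.795 to 1.08). Prdm1 had a ratio of 0.993 (0.925 to 1.07) and Pdc one of 0.984 (0.914 to 1.06). No member other than Gngt2, Gnb3 and Thrb had an interval that excluded 1. With each cell thinned to 2000 UMIs, only Gngt2 kept an interval that excluded 1 in both random draws made. Thrb had a ratio of 0.845 (0.753 to 0.949) in one draw and 0.95 (0.849 to 1.06) in the other, and Gnb3 one of 1.13 (0.948 to 1.35) and 1.35 (1.13 to 1.62), so the intervals of both rested on the full depth or on the draw. Over 17 other settings, the log2 ratio of Gngt2 stayed between 0.71 and 0.98, that of Gnb3 between 0.17 and 0.45 and that of Thrb between -0.39 and -0.07. Those of Rxrg, Prdm1 and Pdc took both signs.

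**Figure D2:**
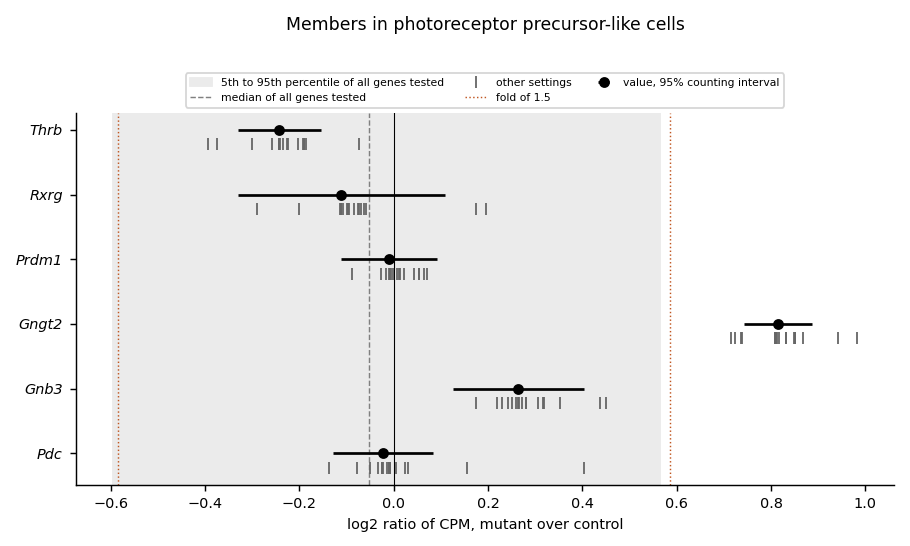
Log2 ratio of CPM, mutant over control, of 6 members in photoreceptor precursor-like cells, with 95% counting intervals (black) and the value under each other setting (grey ticks). The grey band spans the 5th to 95th percentile of 10858 genes, -0.60 to 0.56, the dashed line is their median, and dotted lines mark a fold of 1.5, which only Gngt2 passes.

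Where Gngt2 was next most abundant, its ratio was near 1. It was 0.958 (0.794 to 1.16) in endothelial-like cells and 1.04 (0.865 to 1.24) in immune-like cells, and the difference between these ratios and that of precursor-like cells was not tested. Retinal progenitor-like cells had a Gngt2 ratio of 1.68 (1.22 to 2.33), at 1.90 and 3.20 CPM, and a Pdc ratio of 2.08 (1.18 to 3.86), at 0.558 and 1.16 CPM. Gngt2 ratios of 3.51 in neurogenic progenitor-like and 2.27 in ganglion cell-like cells rested on few cells, since 5 cells held 78.9% of the mutant UMIs in the first class and 95.1% in the second. Pericyte-like cells had a ratio of 1.83 (1.05 to 3.26), at 4.09 and 7.47 CPM, with 86.4% of the control and 58.3% of the mutant UMIs in 5 cells. Melanocyte-like and muscle-like cells had 1 control UMI each and 9 and 14 mutant UMIs, in 5 cells or fewer. In surface epithelium-like cells all 46 mutant UMIs were in 5 cells or fewer, and the control had 0.

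More mutant precursor-like cells had many copies of Gngt2. Each cell was thinned to 2000 UMIs, which left out 15 control and 13 mutant cells and kept 319 and 470. Gngt2 was then found in 62.4% (56.8% to 67.7%) of the control and 73.0% (68.7% to 76.9%) of the mutant cells. The share of cells with at least 5 Gngt2 UMIs was 18.5% in the control (14.4% to 23.2%) and 36.0% in the mutant (31.6% to 40.5%), and the median over cells with the gene was 3 and 4 UMIs. Gnb3 was found in 38.2% (32.9% to 43.8%) and 46.6% (42.0% to 51.2%), and Prdm1 in 63.6% of both libraries. Thrb was found in 66.5% (60.99% to 71.6%) and 63.0% (58.4% to 67.4%), Pdc in 47.6% and 42.6%, and Rxrg in 23.2% and 20.6%. Before thinning the shares ran from 44.1% for Rxrg in the mutant to 91.9% for Prdm1 in the mutant. No thinned erythroid-like share was above 0.211%, at a median depth of 17025 and 16883 UMIs before thinning. Rcvrn was found in 0 of 319 and 0 of 470 cells, for which a limit of 3 counts gives shares of cells with a UMI at this depth of up to 0.940% and 0.638%, and the exact 95% interval ends at 1.15% and 0.782%. These limits do not bear on cells that express the gene below detection.

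**Figure D3:**
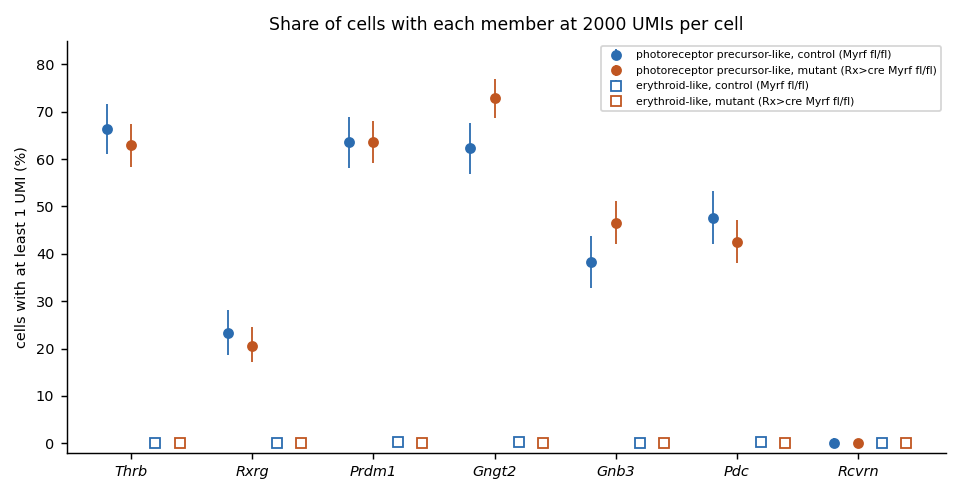
Share of cells with at least 1 UMI of each member after thinning each cell to 2000 UMIs, in photoreceptor precursor-like cells (filled circles) and erythroid-like cells (open squares) of control (blue) and mutant (orange), with exact 95% binomial intervals. Gngt2 is found in 62.4% of control and 73.0% of mutant precursor-like cells, and no erythroid-like share exceeds 0.211%.

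Within the precursor-like class Gngt2 and Thrb were found more often in cells with Pdc than in cells without it, and Prdm1 differed less. Among control cells with Pdc, 86.2% also had Gngt2, against 40.7% of those without Pdc, and in the mutant the values were 95% and 56.7%. Thrb was found in 80.3% of control cells with Pdc and 53.9% without, and in 76.5% and 53.0% in the mutant. Prdm1 was found in 63.2% of control cells with Pdc and 64.1% without, and in 68.0% and 60.4% in the mutant. At 2000 UMIs, 4.39% of control and 4.47% of mutant cells had a UMI of 6 members at once, 25.7% and 26.4% had 4, and 5.64% and 5.11% had none.

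Cells were then grouped by UMIs of Atoh7, the factor of newly born retinal neurons, which lies outside the members. In the control, Pdc was at 939 CPM in cells with 0 Atoh7 UMIs (808 to 1085) and at 293 CPM in cells with 2 or more (239 to 356). Thrb was at 1184 and 578 CPM in these cells of the control, and Gnb3 at 408 and 195 CPM. Gngt2 was at 1755 and 572 CPM. Prdm1 went the other way without separating, at 459 (369 to 564) and 575 CPM (498 to 660.1). The mutant had the same order for Thrb, Gngt2, Gnb3 and Pdc, with Pdc at 1066 and 287 CPM.

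Gngt2 was higher in the mutant in each of these groups of cells. It was at 2811 CPM in mutant cells with 0 Atoh7 UMIs, against 1755 CPM in the control, and at 1151 against 572 CPM in cells with 2 or more. In cells with 1 Atoh7 UMI it was at 2214 (2003 to 2441) against 1926 CPM (1655 to 2227), and these intervals overlapped. Thrb was at 1106 CPM (991 to 1231) against 1184 CPM (1036 to 1346) in cells with 0 Atoh7 UMIs, and its intervals also overlapped in cells with 1 and in cells with 2 or more. Pdc differed in sign between groups, at 1066 against 939 CPM with 0 Atoh7 UMIs and at 549 against 1170.2 CPM with 1, from 47 control and 91 mutant cells.

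**Figure D4:**
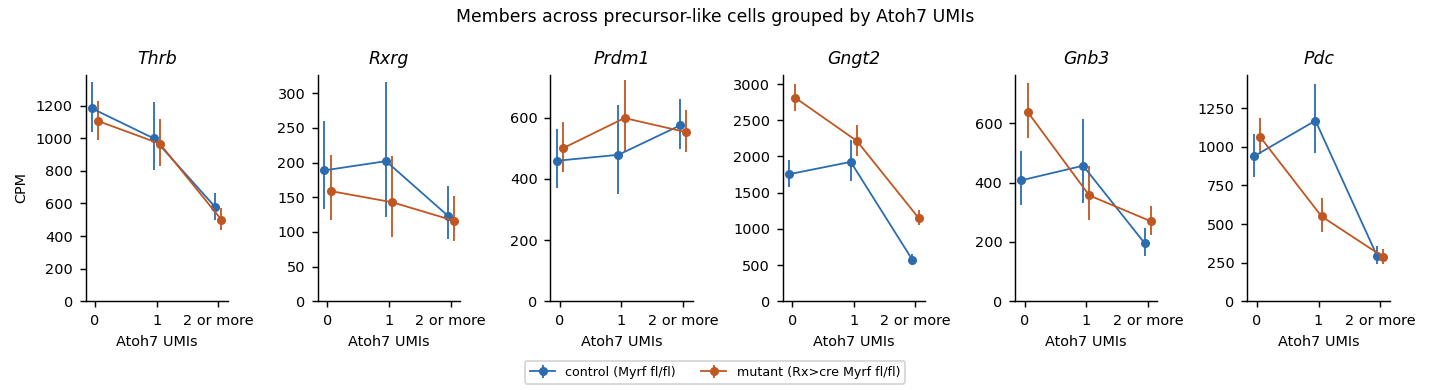
CPM of 6 members in photoreceptor precursor-like cells grouped by 0, 1 or at least 2 Atoh7 UMIs after thinning to 2000 UMIs, for control (blue) and mutant (orange), with 95% counting intervals. Thrb, Gngt2, Gnb3 and Pdc are lower with at least 2 Atoh7 UMIs than with 0 in both libraries. Gngt2 is higher in the mutant in all 3 groups, with overlapping intervals in the group with 1.

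The libraries differed in sex-linked transcripts, and so the class was split by them. Among precursor-like cells, 0 of 334 control and 54.0% of mutant cells had a Y-linked UMI. Gngt2 was at 859 CPM in the 320 control cells that had Xist but no Y-linked UMI (823 to 896), at 1697 CPM in the 143 mutant cells of that kind (1621 to 1776) and at 1401 CPM in the 240 mutant cells that had a Y-linked but no Xist UMI (1348 to 1455). Both mutant sets were thus above the control set. Thrb was at 749, 578 and 647 CPM in these sets, and Gnb3 at 268, 335 and 309 CPM. Prdm1 stood at 529, 533 and 534 CPM, and the intervals overlapped. Pdc, at 494, 549.6 and 444 CPM, and Rxrg, at 121, 138 and 98.0 CPM, lay on either side of the control in the 2 mutant sets.

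**Figure D5:**
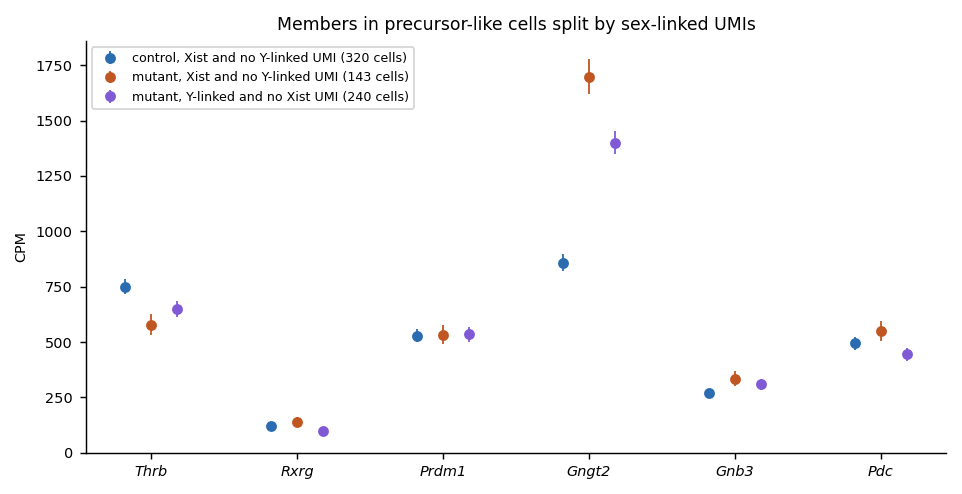
CPM of 6 members in photoreceptor precursor-like cells split by Xist and Y-linked UMIs, with 95% counting intervals: control cells that had Xist alone (blue), mutant cells of the same kind (orange) and mutant cells that had Y-linked UMIs alone (purple). Gngt2 is at 859, 1697 and 1401 CPM in this order.

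Other genes of the pathway gave the setting for these values. Of 32 other phototransduction genes, 17 had at least 20 UMIs in the class and 7 had none in either library. Only Pde6g, with 6 and 19 UMIs, and Cnga3, with 23 and 52, were past a fold of 1.5, both higher in the mutant with intervals that included 1, and none was lower, where 9.78% of all genes were past the fold. The list's median log2 ratio was 0.26 (medians of the bounds, -0.26 to 0.63), against -0.05 over all genes. Unc119, a lipid-binding chaperone of photoreceptor proteins, had the most UMIs, at 562 and 571 CPM. Gnat2, the cone transducin alpha subunit that completes the trimer of Gnb3 and Gngt2, was at 81.3 and 97.1 CPM, a ratio of 1.19 (1.00 to 1.43). Gnb1, the beta subunit of the rod trimer and of many other tissues, was at 268 and 200.2 CPM, a ratio of 0.747 (0.672 to 0.831). Cngb3, a subunit of the cone channel, was at 151 and 157 CPM. Opn1sw, the short-wavelength opsin, had 10 and 21 UMIs, and Opn1mw had 0 in both libraries.

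Of 29 other photoreceptor transcription factors, 25 were measured, and 1 was past the fold in each direction, with a median log2 ratio of -0.03. Neurod1, a factor of photoreceptor survival and cone identity, had the most UMIs, at 1736 and 1914 CPM. The lower one was Samd11, a photoreceptor nuclear protein, at 61.4 and 30.7 CPM, a ratio of 0.50 (0.389 to 0.642). Onecut2, a factor of cone, horizontal and ganglion cell genesis, was at 441 and 325 CPM, a ratio of 0.737 (0.678 to 0.800). Nrl, the rod determinant, was at 33.3 and 47.7 CPM, a ratio of 1.43 (1.10 to 1.88), and Nr2e3, which acts after it, had 0 and 2 UMIs. Of the partners of the member receptors, Thra had 85.6 and 88.6 CPM and Rxra 12.3 and 12.1 CPM.

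Genes listed for other cell types also differed between the libraries in this class. Over all genes tested, 4.57% were past the fold and higher in the mutant and 5.21% were past it and lower. Of 11 retinal progenitor genes, 7 were past the fold and higher in the mutant. The summed level of the 11 was 1170 CPM for the control against 1630 CPM for the mutant, with a median log2 ratio of 0.68. Rax gave 462 and 521 CPM of these sums, at a ratio of 1.13 (1.05 to 1.21). Of 7 haemoglobin genes, 5 were measured, 3 were past the fold and higher, 1 was lower, and 1, Hbb-bt, was at 1.40 times the control. Their summed level was 10308 and 17240 CPM, and their median log2 ratio 0.71. Leaving haemoglobin and mitochondrial UMIs out of the class totals gave a log2 ratio of 0.83 for Gngt2 and -0.23 for Thrb. Gngt2 was at 0.858 and 0.716 CPM in erythroid-like and at 1.90 and 3.20 CPM in progenitor-like cells. The summed levels of mesenchyme and ganglion cell genes were lower in the mutant. Of 6 mesenchyme genes, Postn was past the fold, at 22.2 and 3.29 CPM, none was past it and higher, and 3 had intervals below 0, with a summed level of 189 and 135 CPM and a median log2 ratio of -0.38. Of 8 measured ganglion cell genes, 3 were past the fold and lower and 1, Sncg, was higher, while 1 interval lay below 0, that of Nefm, and 1 above, that of Sncg, with a summed level of 183 and 152 CPM and a median log2 ratio of -0.41. RPE and pigment genes summed to 45.2 and 42.5 CPM, and dissociation stress genes to 417 and 424 CPM. The part of any of these groups of genes in the Gngt2 ratio was not tested.

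Outside photoreceptor precursors, Thrb had a lower CPM in mutant cells of cluster 15, labelled RPE-like in the plot of levels by class, where Myrf was highest. It had 116 UMIs in 373 control and 35 in 202 mutant cells, at 30.5 and 18.6 CPM. The ratio was 0.609 (0.405 to 0.896). The cluster had a median of 6747 and 3617 UMIs, and 13.7% of all genes tested in it were past the fold of 1.5 in either direction. In endothelial-like cells Thrb had 29 control and 2 mutant UMIs, but all of them were in 5 cells or fewer per library. In neurogenic progenitor-like cells Thrb was at 16.9 and 12.2 CPM, a ratio of 0.720 (0.569 to 0.910). Rxrg was at 14.5 and 8.26 CPM in muscle-like cells, a ratio of 0.570 (0.340 to 0.931), and at 32.0 and 30.6 CPM in ganglion cell-like cells, a ratio of 0.957 (0.798 to 1.15). Prdm1 had 9 and 40 UMIs in ganglion cell-like cells, with all of the control UMIs and 80.0% of the mutant UMIs in 5 cells or fewer.

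The genes whose levels over the 15 classes were most like those of the members were found by the correlation of log2(CPM + 1). All points share the 2 libraries and the same classes, and the correlations are a description. For Pdc they were Pgc, Otop3 and Gngt1, the rod transducin gamma subunit, with r of 0.984, 0.983 and 0.982. For Gnb3 they were Epha8, Lhx4 and Slc24a2, the cone sodium-calcium exchanger, with r of 0.984, 0.974 and 0.971. For Gngt2 they were Samsn1, Gsg1 and Trim65, with r of 0.973, 0.897 and 0.836. For Prdm1 they were Lhx3, 4930555A03Rik and Crx, with r from 0.894 to 0.927. For Thrb they were Rom1, Gulo and Lrtm2, with r from 0.909 to 0.926, and for Rxrg Nptx1, Dscam and Irx6, with r from 0.787 to 0.886. Samsn1 in precursor-like cells was at 137 and 131 CPM, a ratio of 0.958 (0.832 to 1.10), and Gsg1 was at 56.7 and 32.4 CPM, a ratio of 0.571 (0.444 to 0.734), so neither was higher in the mutant as Gngt2 was.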

How the data were processed

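Per library, the deposited table holds unnormalized UMI counts of 31053 genes by barcode. The submitters' processing notes name Cell Ranger 7.1.0, Seurat 4.1.1 and the mm10 build, and the matrix headers give software version 3.1.0. Barcodes with under 200 genes or over 15% mitochondrial UMIs were left out, as were doublets called by Scrublet in scanpy 1.11.5 (424 control and 442 mutant, fewer than loading would give, so doublets remained). The expected doublet rate was set to 0.1 after the default of 0.05 had called 366 doublets in the control library and 0 in the mutant library, so this setting was chosen after seeing the data.

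Both libraries were clustered together on 1870 variable genes (30 principal components, 15 neighbours, Leiden resolution 1.0). Features excluded the members, the markers used for names, and haemoglobin, mitochondrial and sex-linked genes. Without a name remained 4 clusters (7.45% and 7.58% of cells), and the limits for naming were chosen with the data in view. The names were rebuilt here and can differ from the study's.

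UMIs were summed per class and library and divided by the class total. Sums carry exact Poisson, shares exact Clopper-Pearson and ratios exact conditional binomial intervals, which assume independent UMIs. No test was made, because cells of 1 library are not replicates. A library with 0 UMIs was set to 3 where a fold was counted, and genes needed 20 UMIs over both libraries. Thinning drew 2000 UMIs per cell without replacement. The ratio intervals and the thinning were checked on simulated independent Poisson counts. These hold no spread between cells or pools, so the check does not cover it.

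The members, lists and groupings were chosen with earlier results of these data known, and the groups by Atoh7, by Otx2 in neurogenic cells and by Y-linked UMIs were added after the values were seen. Genes named are the members, the 3 genes most like each over classes among genes with at least 200 UMIs, and list genes past the fold or with most UMIs (not all of them), while Cngb3, Hbb-bt, Nr2e3, Nrl, Gnat2, Gnb1, Onecut2, Opn1sw, Opn1mw, Thra, Rxra and Samd7 were chosen after their values were seen. Gene positions come from GENCODE vM21 and promoters from RefSeq. Some genes of the lists are not reported here by name. Other time points were not analysed here.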

Additional observations from a re-analysis of the deposited data

Results flagged for a closer look

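The only result that stood out in data outside the main measurement was the sex-linked signal. A UMI of Ddx3y, Eif2s3y, Kdm5d or Uty was seen in 41.7% of mutant cells (40.9% to 42.6%), above the control library, where it was seen in 3 of 11518 cells, or 0.0260% (0.00537% to 0.0761%). Xist UMIs occurred in 71.7% of cells in the control library and 27.4% in the mutant library. The labels give no sex, so sex and genotype cannot be told apart between whole libraries, and the members were therefore also compared in cells with an Xist UMI and no Y-linked UMI.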

How the results depend on the processing

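With 1 library per genotype, no value has a replicate check, and the median depth of 6717 and 6826 UMIs per precursor-like cell limits what a share of cells can show. The ratio of the precursor-like share stayed between 1.14 and 1.35 over 9 alternatives, with 1.14 (0.896 to 1.46) when the mitochondrial limit was 5%. The median log2 ratio of the members moved from -0.02 to 0.29 under that limit, which left 119 control and 164 mutant precursor-like cells, and to 0.18 in cells with an Xist and no Y-linked UMI. The number of genes past the fold moved from 1062 to 4384 with no minimum on UMIs, to 180 with at least 100 UMIs and to 263 at a fold of 2, as these settings change what is counted.

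Of the single members, Gngt2, Gnb3 and Thrb kept their direction under all 17 alternatives, but the interval of Thrb included 1 in 1 of 2 draws of thinning to 2000 UMIs, at a ratio of 0.95, and that of Gnb3 in the other, at 1.13. Pdc moved most, from -0.02 to 0.40 on the log2 scale, under the 5% limit, where the cause was not tested. Of the values for single members and their shares, 129 moved by less than their counting interval and 69 by more, and none of the called ones changed sign. Removing cells over 2000 UMIs, the limit the study stated, left no cluster named as photoreceptor precursor and gave no value. The alternatives without barcodes found in both libraries, with Y-linked cells of the mutant only, without haemoglobin and mitochondrial UMIs, and with the draw of thinning behind the shares of cells were chosen after seeing the data. No paired analysis was possible because each genotype has 1 library.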
